A study of Rattus norvegicus with 22 samples.

Results

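The transcripts described here are those of axon guidance receptors and of Gap43, a protein of the growth cone. The rule listed 8 genes by symbol: the semaphorin receptors Nrp1 and Nrp2, the netrin receptors Dcc, Unc5a and Unc5b, the Slit receptors Robo1 and Robo2, and Gap43. Only 3 of these 8 genes, Nrp1, Nrp2 and Gap43, had a probe set under their symbol in the value table used here, with 1 probe set each among 1050 probe sets and 643 named genes. The other 5 were not analysed here, so nothing is said about them.

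The arrays compared 3 kinds of cells from the L2 segment of the spinal cord of neonatal Wistar rats of postnatal day 0 to 4. Descending commissural interneurons (dCINs, labelled CIN in the sample titles) send their axons across the midline and down the cord, and were filled with a fluorescent dextran through a cut on one side of the cord between L3 and L4. Motor neurons (MNs) send their axons out to muscle, and were filled through the cut L2 ventral roots. MIX samples held cells of the ventral L2 cord dissected at random, and could include both labelled types as well as other cells. That follows the study's methods, whereas the sample descriptions speak of fluorescent neurons for every sample, MIX included, so what the MIX samples held is not settled. Before sectioning, the tracer was left on the isolated cords for about 3 h, so both labelled groups came from neurons whose axons had just been cut. There were 7 dCIN, 7 MN and 8 MIX arrays, each from 1 animal, with 50 to 100, 55 to 250 and 95 to 187 laser microdissected cells per sample. In such pooled cells, fewer cells of a type and less RNA per cell cannot be told apart.

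As background, a growing axon is steered by receptors on its growth cone that read attractive and repulsive cues. Neuropilins bind secreted class 3 semaphorins and signal through plexin partners, and they also bind forms of the vascular growth factor VEGF, so that endothelial cells use Nrp1 as well. Commissural axons are drawn to the midline by netrin through Dcc and kept from recrossing it by Slit through Robo receptors, while Gap43 is a membrane-bound substrate of protein kinase C that binds calmodulin and is abundant in neurons that are growing or regrowing an axon.

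The cells carried the markers of their labels where these were measured. Slc18a3, the vesicular acetylcholine transporter, averaged 4040 ± 927 (SD, n = 7) in MNs and 566 ± 457 (SD, n = 7) in dCINs, and the vesicular GABA and glycine transporter Slc32a1 averaged 514 ± 131 in dCINs and 125 ± 113 in MNs, and both genes are among those the study chose on these arrays. The summed signal of the 3 measured of 9 motor neuron markers ran from 6603 to 8859 in MNs, from 851 to 2513 in dCINs and from 3462 to 7056 in MIX. These 3, Slc18a3, Calcb and Nefh, are all among the genes the study chose on these arrays, so this separation is not independent evidence. The study had expected Slc18a3 and Slc32a1 to differ between dCINs and MNs. Its real time RT-PCR on separate animals gave the same directions for both and for Calcb. The 5 measured of 8 astrocyte markers summed to 739 to 1352 in MNs, 1048 to 1956 in dCINs and 850 to 1922 in MIX, and none of them passed the test in any comparison. Most of that sum was S100b, at means of 771 in MNs, 1103 in dCINs and 1198 in MIX, with a log2 difference of 0.53 between dCINs and MNs (adjusted p = 0.170 in limma) and 0.62 between MIX and MNs (adjusted p = 0.237), and its part in the results below was not tested. Likewise none of the 4 measured of 6 oligodendrocyte markers, and not the 1 measured of 6 microglial markers, passed in any comparison. Of the 4 Schwann cell markers only S100b, also an astrocyte gene, was measured. No vessel marker of 8 was measured, so the share of vessel cells in the MIX samples was not tested. Array medians ran from 43.5 to 50.9 over all 22 arrays, and no pair of arrays held identical values.

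Nrp1 transcript was higher in MNs and in MIX samples than in dCINs, by 3.55-fold and 3.99-fold on the mean log2 scale. By the study's account, its subtraction of a universal minimum from all values makes such ratios larger. Across the 7 MN arrays, in order of array number, the Nrp1 signal was 25.3, 22.9, 36.7, 148, 172, 160 and 73.4, with a median of 73.4. Across the 7 dCIN arrays it was 22.9, 14.9, 24.7, 16.4, 35.8, 25.7 and 7.03, with a median of 22.9. MN arrays 4 to 7 were well above MN arrays 1 to 3, and 5 of the 7 MN arrays lay above every dCIN array, while MN arrays 1 and 2 were within the dCIN range. In the 8 MIX arrays the lowest Nrp1 signal was 24.6, the median 82.7 and the highest 189. All but MIX array 3 lay above every dCIN array, and 7 of the 8 were within the range of the MN arrays.

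**Figure D1:**
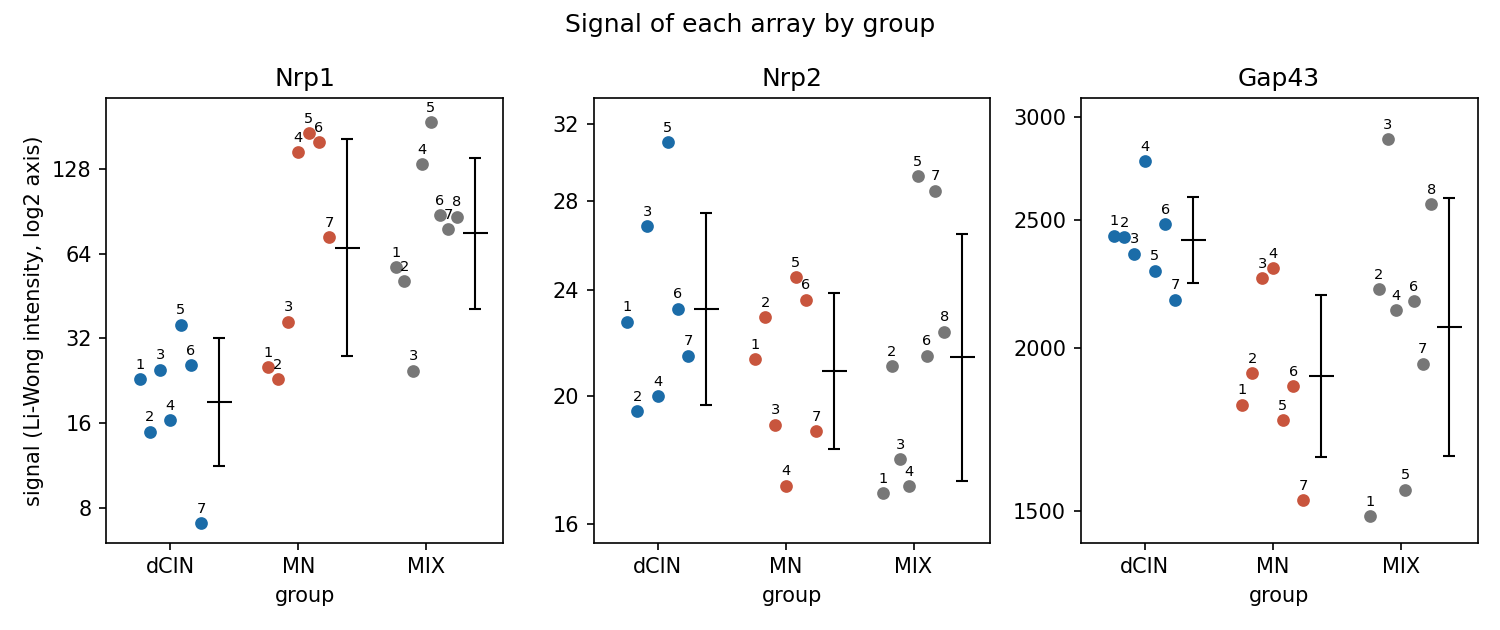
Signal of Nrp1, Nrp2 and Gap43 on each array, as Li-Wong intensity on log2 axes that differ between panels, for the dCIN (blue), MN (red) and MIX (grey) arrays, with array numbers beside the points and bars for the mean and SD of the log2 values. The dCIN arrays sit between 7.03 and 35.8 for Nrp1, where 7 of 8 MIX arrays are higher, and between 2176 and 2775 for Gap43, where 5 of 7 MN arrays are lower.

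Group means of the Nrp1 signal were 21.1 ± 9.25 (SD, n = 7) in dCINs, 91.1 ± 66.8 (SD, n = 7) in MNs and 88.6 ± 51.6 (SD, n = 8) in MIX. Between dCINs and MNs the log2 difference was -1.83 ± 0.51 (SE), with a 95% interval of -2.91 to -0.74 and an adjusted p of 0.0750 in limma. It was the 10th largest difference of the 1050 probe sets by size but the 37th by p. Under an adjusted p of 0.1, 40 probe sets were called in this comparison, 3.81% of those tested, with 25 higher in dCINs (2.38%) and 15 higher in MNs (1.43%). An exact permutation test over the 14 arrays, two-sided, gave p = 0.00874 for Nrp1. The 2 groups overlapped, whereas 17 probe sets, 1.62%, did not overlap between dCINs and MNs. Nrp1 is among the genes the study chose on these same arrays, so its direction here is not independent evidence.

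The 2 MN samples with over 200 cells, arrays 1 and 2, had the 2 lowest Nrp1 signals of the group. For these 2, cell number and array number cannot be told apart, and MN array 3, of 70 cells, was next lowest at 36.7. Without MN arrays 1 and 2 the log2 difference between dCINs and MNs was -2.42 (adjusted p = 0.00681 in limma). A fit with a term for cell number gave -2.21 (adjusted p = 0.0496). With arrays 3 to 7 of both groups only it was -2.41 (adjusted p = 0.0153). A term for arrays 1 and 2 against the others gave -1.83 (adjusted p = 0.0265). When 1 array was left out at a time, the Nrp1 difference stayed between -2.09 and -1.59 and was called in 5 of 14 fits, those without dCIN array 1 or 5 or MN array 1, 2 or 3. It was no longer called without dCIN array 2, 3, 4, 6 or 7 or MN array 4, 5, 6 or 7, at adjusted p of 0.109 to 0.172. An offset before the log2, which shrinks differences between low signals, also ended the call, with a difference of -1.29 (adjusted p = 0.105) at an offset of 16 and -1.03 (adjusted p = 0.127) at 32.

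For MIX against dCINs the Nrp1 difference was 2.00 ± 0.48 (SE) on the log2 scale, with a 95% interval of 1.00 to 2.99 and an adjusted p of 0.0858 in limma. This was the second largest difference of all probe sets and 1 of only 5 called, 0.476% of those tested, all 5 higher in MIX. The exact permutation p, two-sided, was 0.00109, and the groups overlapped through MIX array 3, as they did for all but 2 probe sets (0.19%). At an offset of 16 the difference was 1.39 (adjusted p = 0.133) and at 32 it was 1.09 (adjusted p = 0.203), and neither was called. The call was kept in 4 of 15 fits that left out 1 array, those without dCIN array 5 or 6 or MIX array 2 or 3. It was lost without dCIN array 1, 2, 3, 4 or 7 or any of MIX arrays 1, 4, 5, 6, 7 and 8, at adjusted p of 0.101 to 0.207 and differences of 1.76 to 2.06. Between MIX and MNs the Nrp1 difference was 0.17 ± 0.48 (SE), with an interval of -0.83 to 1.17 and an adjusted p of 0.883, in a comparison that called 10 probe sets (0.952%) and left 2 (0.19%) without overlap. dCINs had the lowest Nrp1 mean, while the order of MIX and MNs depended on the scale (MIX first in mean log2, MN first in the linear mean) and the 2 were not separated beyond their spread. The 2 comparisons with dCINs share the same 7 dCIN arrays.

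**Figure D2:**
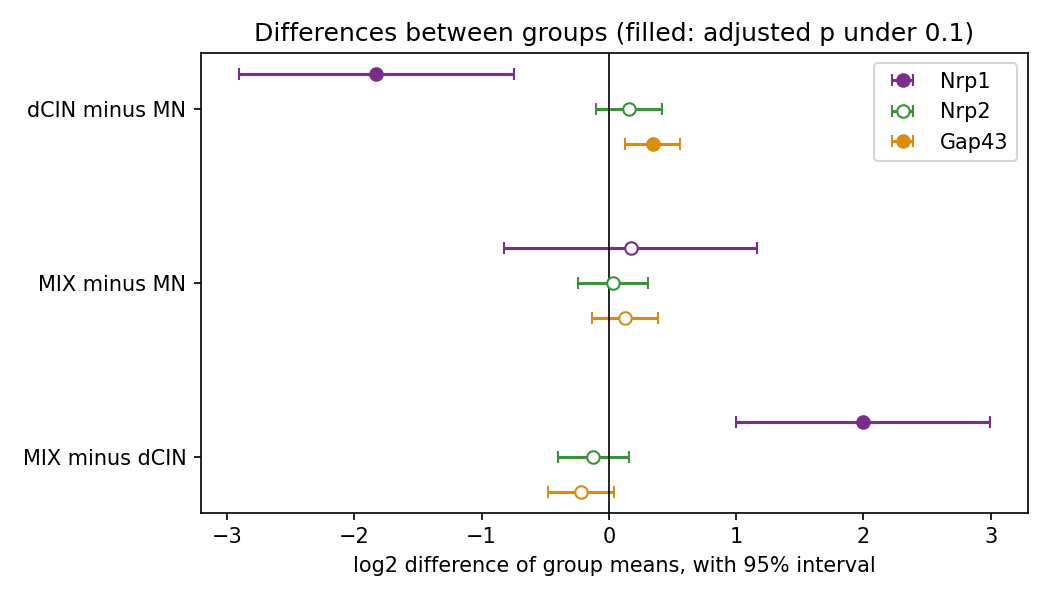
Differences of mean log2 signal between groups for Nrp1, Nrp2 and Gap43, in the 3 comparisons, with 95% intervals from limma and filled points where the adjusted p over all 1050 probe sets was under 0.1. The intervals of Nrp1 exclude 0 against dCINs in both comparisons, whereas those of Nrp2 include 0 in all 3.

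The Nrp1 signal also varied more between arrays of a group than that of most probe sets. Its SD within groups was 1.00 on the log2 scale, larger than that of 97.6% of probe sets and against a median of 0.28. The spread was 0.76 in dCINs, 1.28 in MNs and 0.89 in MIX, and the highest array of a group was 5.09 times the lowest in dCINs, 7.53 times in MNs and 7.67 times in MIX. The deposited values come without detection calls, so whether the lowest Nrp1 signals lay above background is not known.

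**Figure D3:**
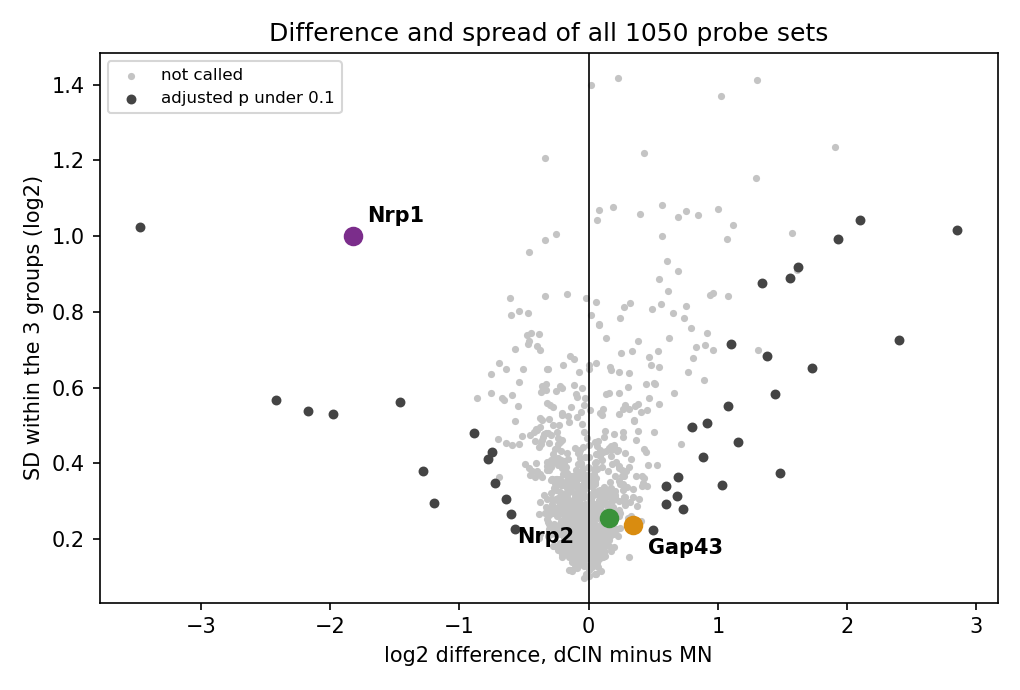
Each point is 1 of the 1050 probe sets, placed by its log2 difference between dCINs and MNs and by its SD within the 3 groups on the log2 scale, with called probe sets in dark grey and Nrp1, Nrp2 and Gap43 in colour. Nrp1 combines a difference of -1.83 with an SD of 1.00, whereas Gap43 was called with a difference of 0.34 and an SD of 0.24.

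Nrp2, the other neuropilin, showed no difference that passed the test in any comparison. Its signal ran from 19.5 to 31.0 in dCINs (median 22.7), from 17.1 to 24.5 in MNs (median 21.3) and from 16.9 to 29.3 in MIX (median 21.2). The 3 groups overlapped, though 3 of 7 MN arrays and 3 of 8 MIX arrays lay below every dCIN array. Of the 7 dCIN arrays 2 lay above every MN array and 1 above every MIX array. Means were 23.5 ± 4.11 (SD, n = 7) in dCINs, 21.0 ± 2.80 (SD, n = 7) in MNs and 21.8 ± 4.83 (SD, n = 8) in MIX. The log2 difference between dCINs and MNs was 0.15 ± 0.12 (SE), with an interval of -0.10 to 0.41 and an adjusted p of 0.716 in limma. For MIX the differences were 0.033 against MNs (interval -0.24 to 0.31) and -0.12 against dCINs (interval -0.40 to 0.15). These intervals do not show that the groups were alike: no detection calls were used, so whether the Nrp2 signal lay above background is not known, and a probe set at background would give small differences whatever the transcript did. The SD of Nrp2 within groups, 0.26 on the log2 scale, exceeded that of 41.1% of probe sets. Over the 22 arrays, which share the same cells, amplification and normalization for both genes, Pearson's r between the log2 signals of Nrp1 and Nrp2 was 0.07. It was 0.36 after the group means were removed, and within groups 0.69 in dCINs, 0.04 in MNs and 0.48 in MIX.

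Gap43 transcript was higher in dCINs than in MNs, by 1.27-fold, and was intermediate in MIX. In the dCIN arrays its signal was 2435, 2429, 2358, 2775, 2289, 2483 and 2176 in order of array number, with a median of 2429. In the MN arrays it was 1809, 1911, 2260, 2298, 1760, 1869 and 1530, with a median of 1869. Of the 7 dCIN arrays 5 lay above every MN array, and MN arrays 3 and 4 were the only ones to reach the dCIN range. The 8 MIX arrays spread more widely, from 1487 to 2883 with a median of 2153, so that 1 lay above and 5 lay below every dCIN array.

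The means of Gap43 were 2421 ± 188 (SD, n = 7) in dCINs, 1920 ± 274 (SD, n = 7) in MNs and 2121 ± 470 (SD, n = 8) in MIX. Between dCINs and MNs the log2 difference was 0.34 ± 0.10 (SE), with an interval of 0.13 to 0.56 and an adjusted p of 0.0979 in limma, the last of the 40 calls in order of p. Unlike Nrp1, Gap43 is not among the genes the study chose on these arrays. The exact permutation p over the 14 arrays, two-sided, was 0.0035. Gap43 was thus separated from 0 by a small difference with little spread. Its SD among dCIN arrays was 0.11 on the log2 scale, larger than that of only 3.81% of probe sets there. In MNs it was 0.21 and in MIX 0.33. The mean Gap43 signal was above that of 99.1% of probe sets. The study reports that its array distributions deviated most at low and high intensities before the last normalization step. What that step did to Gap43 was not tested. A further quantile normalization gave a dCIN minus MN difference of 0.44 (adjusted p = 0.0641 in limma). The difference was 0.12 ± 0.13 (SE) between MIX and MNs (adjusted p = 0.642) and -0.22 ± 0.13 (SE) between MIX and dCINs (adjusted p = 0.807), with intervals of -0.13 to 0.38 and -0.48 to 0.04. Neither neighbour in the order dCIN, MIX and MN was separated beyond its spread.

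The direction of the Gap43 difference held in every fit that left out 1 array (0.29 to 0.39), but its call held in only 2 of 14, those without MN array 3 or 4. Without any 1 of the 7 dCIN arrays, or of MN arrays 1, 2, 5, 6 and 7, the adjusted p was 0.1002 to 0.210. Estimating the spread over all 22 arrays raised it to 0.253, a prior that follows the signal to 0.327, and omitting MN arrays 1 and 2, the samples of over 200 cells, to 0.204.

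**Figure D4:**
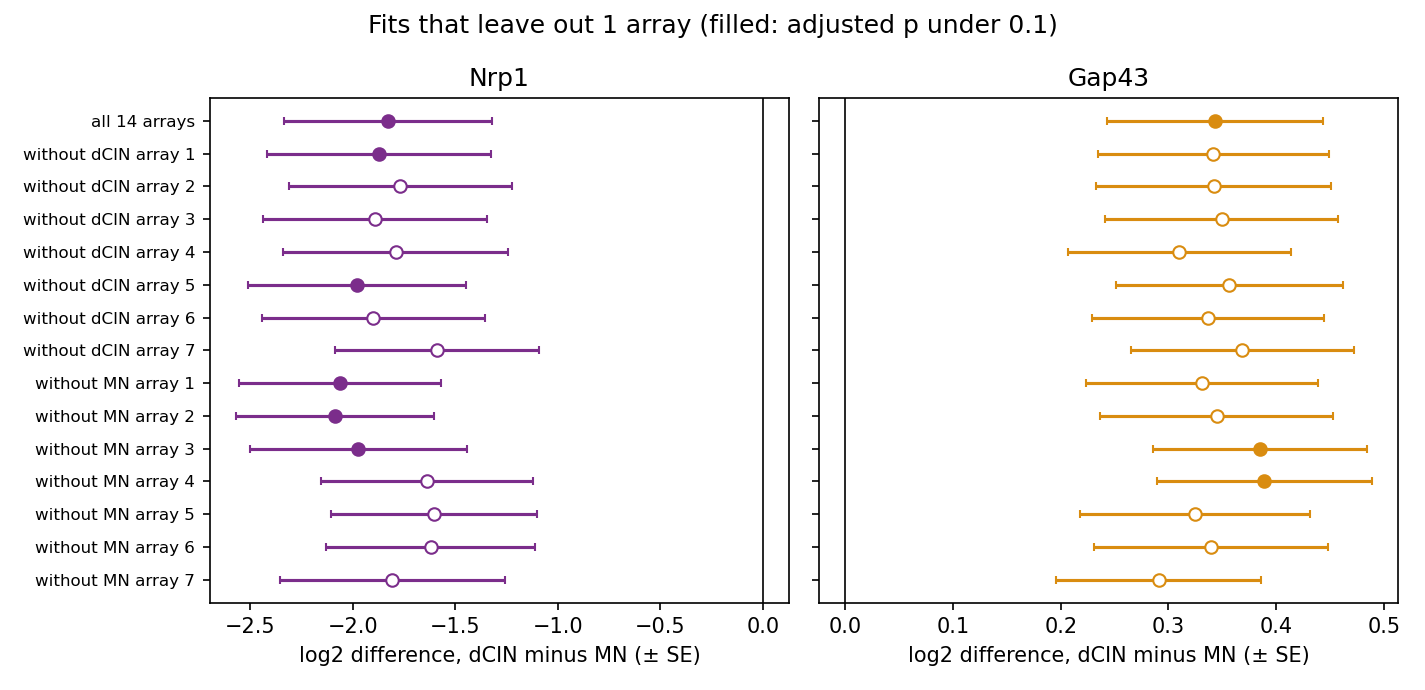
Log2 differences between dCINs and MNs with their SE for Nrp1 and Gap43, in the fit of all 14 arrays and in the 14 fits without 1 array, with filled points where the adjusted p was under 0.1. The sign is the same in every fit, from -2.09 to -1.59 for Nrp1 and from 0.29 to 0.39 for Gap43, while 9 and 12 of the 14 fits end the call.

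Nrp1 and Gap43 thus ran in opposite directions between the labelled groups. Over all 22 arrays Pearson's r between their log2 signals was -0.47, and it was -0.22 after the group means were removed. Within groups it was 0.21 in dCINs, -0.02 in MNs and -0.52 in MIX. The wide ranges of the MIX arrays met at opposite ends: MIX array 3 had the lowest Nrp1 signal of its group and the highest Gap43 signal, and MIX array 5 had the highest Nrp1 and the second lowest Gap43 signal.

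The genes whose signal was most like that of Nrp1 over the 22 arrays were Igfbp5, which encodes an insulin-like growth factor binding protein, Jun, which encodes a transcription factor of the immediate early genes, and Htr4, a serotonin receptor. Pearson's r of the log2 values was 0.74 for Igfbp5 (Spearman's rho 0.72), 0.73 for Jun (rho 0.72) and 0.70 for Htr4 (rho 0.68). The likeness to Jun lay within the groups, at r = 0.83 in dCINs, 0.98 in MNs and 0.74 in MIX. Jun signal ran from 37.5 and 37.9 on MN arrays 1 and 2 to 52.7, 59.9 and 55.0 on MN arrays 4, 5 and 6, which were also the low and the high arrays of Nrp1. Its group means lay close together in dCINs (46.2 ± 8.02, SD, n = 7) and MNs (48.0 ± 8.60, SD, n = 7), with a log2 difference of -0.05 ± 0.14 (SE) and an adjusted p of 0.898 in limma.

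Igfbp5 followed Nrp1 in its group means too, at 44.2 ± 8.33 in dCINs, 74.0 ± 27.6 in MNs and 67.2 ± 37.6 in MIX, with r within groups of 0.71, 0.93 and 0.56. Its log2 difference between dCINs and MNs was -0.67 ± 0.22 (SE) with an adjusted p of 0.161, while the second Igfbp5 probe set gave -0.0032 (adjusted p = 0.997). Igfbp5, like Nrp1, is among the genes the study chose. Without the 2 arrays farthest from the median of the partner gene, r was 0.69 for Igfbp5, 0.76 for Jun and 0.67 for Htr4. All these points share arrays, amplification and normalization, and r is given as a description.

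**Figure D5:**
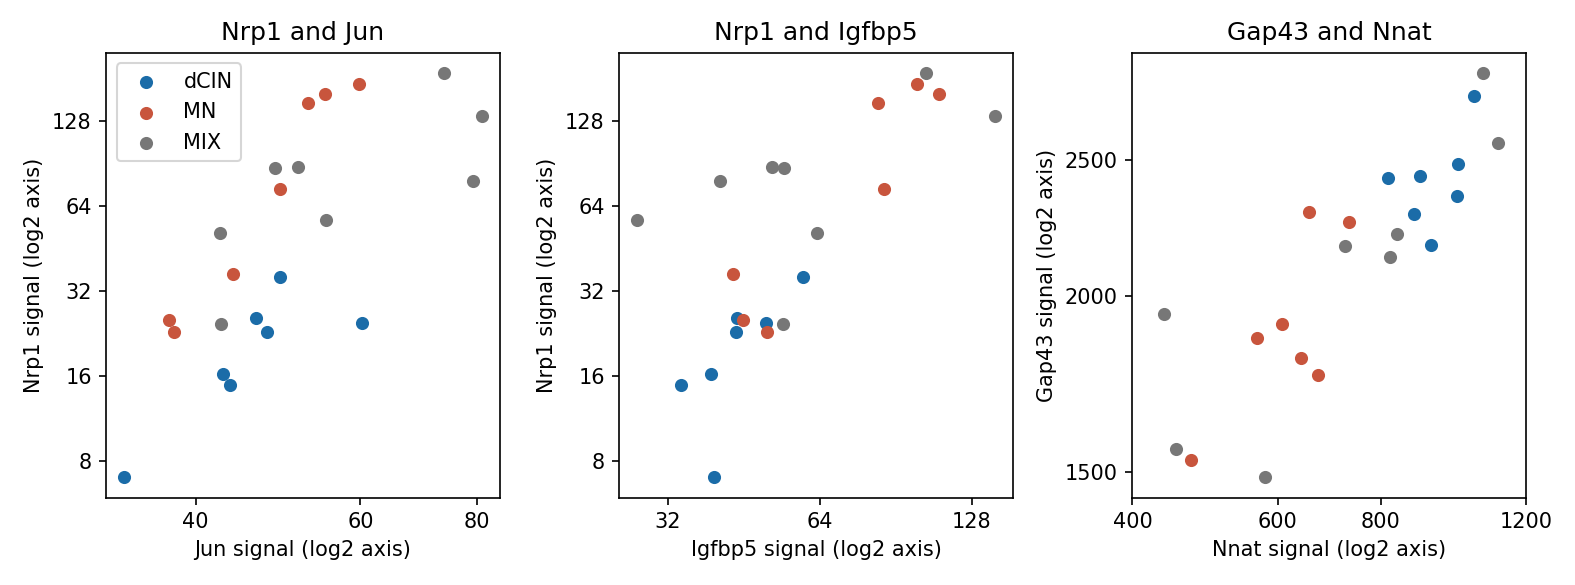
Signals of Nrp1 against Jun, Nrp1 against Igfbp5 and Gap43 against Nnat on the 22 arrays, on log2 axes, with dCIN arrays in blue, MN arrays in red and MIX arrays in grey. Pearson's r of the log2 values is 0.73, 0.74 and 0.86, and for Jun the MN arrays (r = 0.98) and the dCIN arrays (r = 0.83) form separate series.

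Gap43 was most like Nnat, which encodes neuronatin, a small membrane protein of developing neurons, then like Cnr1, the cannabinoid receptor of neurons, and Hcrtr2, an orexin receptor. Pearson's r was 0.86 for Nnat (rho 0.86), 0.74 for Cnr1 (rho 0.79) and 0.73 for Hcrtr2 (rho 0.69), and without the 2 farthest arrays it was 0.88, 0.76 and 0.70. Nnat averaged 933 ± 77.5 in dCINs, 621 ± 83.8 in MNs and 753 ± 256 in MIX, the same order as Gap43. Its r with Gap43 was 0.49 in dCINs, 0.76 in MNs and 0.84 in MIX, and 0.79 over all arrays after the group means were removed. With Cnr1 the r was 0.01 in dCINs, 0.65 in MNs and 0.81 in MIX, and with Hcrtr2 0.25, 0.75 and 0.56. All 3 were called higher in dCINs than in MNs in limma, with log2 differences of 0.60 for Nnat (adjusted p = 0.00278), 1.62 for Cnr1 (adjusted p = 0.0752) and 2.85 for Hcrtr2 (adjusted p = 0.000639), and all 3 are among the genes the study chose on these arrays.

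For Nrp2 the most similar genes were Slc6a3, the dopamine transporter, and the potassium channel genes Kcnma1 and Kcng1, with r of 0.71, 0.71 and 0.70. These values fell to 0.62, 0.53 and 0.58 without the 2 farthest arrays. The low and narrow range of the Nrp2 signal limits what such values can show.

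Little of the guidance pathway around these receptors was measured. Of 40 listed guidance ligands only Vegfb, a VEGF family member, had a probe set, and of 26 further guidance receptors and 16 receptor tyrosine phosphatases none had. Vegfb averaged 47.7 ± 4.05 (SD, n = 7) in dCINs, 52.7 ± 3.02 (SD, n = 7) in MNs and 60.0 ± 12.5 (SD, n = 8) in MIX. Its log2 differences, -0.15 ± 0.08 (SE) between dCINs and MNs (adjusted p = 0.579) and 0.31 ± 0.11 (SE) between MIX and dCINs (adjusted p = 0.370), did not pass the test. Of 22 ephrins and Eph receptors, which guide axons through contact, Epha7 and Epha8 were measured, at 0.23 (adjusted p = 0.628) and -0.08 (adjusted p = 0.809) between dCINs and MNs, and neither was called in any comparison.

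Adhesion molecules of axons were better covered, at 11 of 37 genes, and none of the 11 was called in any comparison. Their median log2 difference between dCINs and MNs was 0.0028, beside -0.03 over all probe sets. Ntm, which encodes neurotrimin, a lipid-anchored adhesion molecule, had the smallest p of this list, with signals of 171 ± 101 in dCINs, 49.1 ± 24.3 in MNs and 159 ± 81.0 in MIX. Its log2 difference between dCINs and MNs was 1.57 ± 0.54 (SE) at an adjusted p of 0.200 in limma, and it too is among the study's chosen genes. Next were Cntn1, which encodes contactin, at -0.24 (adjusted p = 0.618), and Ncam1, the neural cell adhesion molecule, at 0.75 (adjusted p = 0.643).

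Of 30 further listed genes for growth cone, axon and other neuronal proteins, 11 were measured. The 3 that were called were all higher in MNs, a direction in which 1.43% of all probe sets were called. The neurofilament genes Nefl and Nefh, which encode the light and heavy subunits of the axonal intermediate filaments, were 2.30-fold and 2.43-fold higher in MNs (adjusted p = 1.91e-05 and 0.00218 in limma). Sncg, which encodes gamma-synuclein, was 5.34-fold higher in MNs (adjusted p = 0.000297). All 3 are among the genes the study chose on these arrays, and Nefh is also 1 of the motor neuron markers above. The other 8, with Mapt, Map1b, Map2 and the middle neurofilament subunit Nefm among them, were not called, and the median of the list was -0.18 beside -0.03 over all probe sets. Nefl and Sncg were also the 2 of the list called between MIX and dCINs, higher in MIX at an adjusted p of 0.0669 each, and Sncg was the 1 called between MIX and MNs, lower in MIX (adjusted p = 0.0953).

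Of 15 listed calmodulins, protein kinases C and related genes, 6 were measured. Whether each of them acts on Gap43 in these cells was not tested. Of the 6, 1 was called, higher in dCINs, a direction in which 2.38% of all probe sets were called. Prkcb, a protein kinase C, was 2.61-fold higher in dCINs, at 953 ± 179 against 396 ± 178 in MNs (SD, n = 7 each), with an adjusted p of 0.00509 in limma. The study chose Prkcb on these arrays too. Calm3, a calmodulin gene, and Ppp3ca, the catalytic subunit of calcineurin, each had a log2 difference of 0.34, with adjusted p of 0.415 and 0.463. The other protein kinases C measured, Prkca and Prkcz, went the other way, at -0.17 and -0.20 (adjusted p = 0.720 and 0.732 in limma). Of the 6 genes 4 were higher in dCINs and 2 in MNs, with a median of 0.29, beside -0.03 over all probe sets. Below the guidance receptors 7 of 35 listed signalling genes were measured, and none was called in any comparison. Those with the smallest p between dCINs and MNs were Ptk2b, a focal adhesion kinase relative (-0.32, adjusted p = 0.716), Gsk3b, a kinase of microtubule regulators (0.69, adjusted p = 0.716), and Pak1, a kinase downstream of Rac (-0.16, adjusted p = 0.720).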

How the data were processed

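Laser microdissected neurons were profiled on Affymetrix RN_U34 arrays after 2 rounds of RNA amplification. The authors made the deposited intensity values from perfect match probes, with the affy package named in the submitters' processing notes: global background subtraction, then quantile linear transformation and quantile projection normalization across the 22 arrays, then Li-Wong summaries (linear scale), from which a universal minimum was subtracted. These steps give all arrays nearly the same distribution, so a change shared by most genes would not show. The 1050 values per array run from 1 to 8642, and no detection call or scan date was used here. Of the probe sets, 961 had 1 gene symbol in the platform annotation, 7 several and 82 none.

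The values were log2-transformed and compared with lmFit and eBayes of limma 3.58.1 (R 4.3.3), with Benjamini-Hochberg adjustment over all 1050 probe sets and calls at an adjusted p under 0.1, the false discovery rate level of the study. dCINs and MNs were fitted on their 14 arrays, and MIX contrasts on all 22 with 3 group means. Exact permutation tests, two-sided, ran over 3432 splits (7 against 7) or 6435 (8 against 7), with no adjustment, so the smallest p they could give was 0.000583 or 0.000155. The member genes and gene lists were chosen with earlier results of these data known. Named were the member probe sets, the markers of the labelled types, up to 3 genes of smallest p between dCINs and MNs per list (each by its brightest probe set), and the 3 genes most correlated with each member. Mapt, Map1b, Map2, Nefm, Nrgn, Prkca, Prkcz and S100b were named after their values were seen. Precision is limited by the number of arrays.

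Alternatives were the arrays in the fit, offsets of 16 and 32, a minimum mean log2 of 6, quantile normalization, array medians, array weights, a trended robust prior, a block or covariate for array number, the number of cells, a threshold of 0.05, and leaving out each array. Permutation tests for MIX and 2 joint omissions of arrays were added after seeing the data. Code was tested on simulated data. Figures were drawn with matplotlib 3.10.9 (pandas 2.3.3, Python 3.11.15). No sequence or coordinate is given, since the probe sequences and the genome build behind the probe sets were not used here.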

Additional observations from a re-analysis of the deposited data

How the results depend on the processing

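The directions of Nrp1 and Gap43 between dCINs and MNs, and of Nrp1 between MIX and dCINs, were the same under all alternatives run, whereas their calls, with adjusted p of 0.0750 to 0.0979, were not. Of the 3 member probe sets, Nrp1 and Gap43 were called between dCINs and MNs, as were 3.81% of all probe sets. Only Gap43 was called with an offset of 16 or 32. Only Nrp1 was called with all 22 arrays in the fit, a trended robust prior or a term for cell number. It was also the only 1 called with arrays 3 to 7 only. The same held without the MN arrays of over 200 cells, with dCIN array 7 kept or also left out. There were 0 with a minimum mean log2 of 6, which removed Nrp1 and Nrp2 from the test, or at an adjusted p under 0.05, and 0 to 2 without 1 array. Between MIX and dCINs 1 was called, Nrp1, in a comparison that called 0.476% of all probe sets. There were 0 with either offset, the minimum mean log2, quantile normalization, a trended robust prior, or the stricter threshold, and 0 to 1 without 1 array. Between MIX and MNs 0 were called under every alternative run, and with the exact permutation test none had an unadjusted p under 0.05. The difference between MIX and MNs turned negative for Nrp1 with array weights (-0.85) and without the MN arrays of over 200 cells (-0.43), and ran from -0.090 to 0.40 without 1 array. For Nrp2 it was -0.093 with array weights and -0.031 to 0.082 without 1 array. The cause was not tested, beyond the fewer probe sets or arrays that some of these settings leave.

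Over all probe sets, 40 calls between dCINs and MNs became 76 with array weights and 83 with arrays 1 and 2 against the others as a covariate. The 10 calls between MIX and MNs became 33 with array weights, 3 with quantile normalization, 2 without the MN arrays of over 200 cells and 2 under the stricter threshold. The 5 between MIX and dCINs became 68 with a term for cell number, 2 with quantile normalization or a trended robust prior, and 1 under the stricter threshold.

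Whether array numbers mark samples handled together was not settled. Correlations of same-numbered deviations ran from -0.19 to 0.53 between dCINs and MNs, with 5 of 7 over 0.1. An array correlated best with its own number in 2 of 7. A replicate block by array number gave 55 calls over all probe sets between dCINs and MNs, in place of 40. For Nrp1 it gave an SE of 0.42 and an adjusted p of 0.0408 in limma. With the replicate block the member calls stayed at 2, 0 and 1 for dCINs against MNs, MIX against MNs and MIX against dCINs. Of the 3 genes most like each member, ranking by Spearman's rho kept 2 for Nrp1, 3 for Nrp2 and 2 for Gap43, and deviations from group means kept 1, 2 and 1.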
